A study of Mus musculus with 5 samples.

Results

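The cytosolic ribosome is built from ribosomal RNA and a large set of proteins, each encoded by its own gene. The Rpl genes and the stalk genes Rplp0, Rplp1 and Rplp2 encode proteins of the large subunit. The Rps genes, Rpsa and Fau encode proteins of the small subunit. Most of these mRNAs are terminal oligopyrimidine (TOP) mRNAs: they begin with a run of C and T bases, and their translation is switched together by the mTOR pathway. They are among the most abundant mRNAs of growing cells such as embryonic stem cells. An RNA immunoprecipitation (RIP) captures the RNA bound to a tagged protein with an antibody on beads, together with some RNA that sticks to the beads.

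Ribosomal protein probe sets were chosen by symbol in the platform annotation: Rpl or Rps followed by a digit (without the Rps6k kinases), Rplp, Rpsa or Fau. This choice gave 408 of the 34760 probe sets on the array. Of these, 199 carried 1 gene symbol and stand for 66 of 19937 genes with such a probe set. The other 209 were shared with further genes or loci and are given apart. Of the 199, 187 passed a filter on low signal (a mean of 5.76, the median over all probe sets), and each of the 66 genes kept at least 1; of the 12 that did not pass, 5 were of Rpl21. Among the 66 genes, 33 encode large subunit proteins, 22 encode small subunit proteins, and 11 are paralogues, pseudogenes or genes matched only by the letters of their symbol, such as Rps19bp1, which encodes a binding protein of RPS19. A further 26 symbols, 16 of them genes of the standard ribosome such as Rpl3, Rpl11, Rps16 and Rps24, occurred only in shared probe sets.

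RNA was hybridised from R1 mouse embryonic stem cells, a male line of 129X1 x 129S1 background, grown with LIF and serum. The samples form 5 groups of 1 array each: the anti-FLAG RIP of lysate from cells expressing a FLAG:MKRN1 fusion (the MKRN1-labelled RIP), the IgG RIP of the same lysate, the anti-FLAG RIP of lysate from cells with the FLAG construct alone (the Ctrl RIP), and the inputs of the FLAG:MKRN1 and FLAG:Ctrl lysates. Both lines were G418-resistant clones with a constitutive pCAGGS construct, so differences between clones cannot be told apart from those due to the fusion. MKRN1 is a RING-domain zinc finger protein that binds RNA. The lysis buffer was of the polysome type, which keeps ribosomes on mRNA. With 1 array per group there are no replicates: no difference below has an error or a test, and its precision is limited by the number of arrays.

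The table holds log2 signal, and 45 of the 55 genes of the standard ribosome lay at a mean of 12 or above, where the highest value of the whole table was 14.4. The Mkrn1 probe set does not separate the lines: it read 11.71 in the FLAG:MKRN1 input, against 11.80 in the FLAG:Ctrl input. It read 11.90, 11.99 and 12.20 in the MKRN1-labelled, IgG and Ctrl RIPs. This gene thus bears out neither label, and the RIP is called MKRN1-labelled throughout. All 7 stem cell markers lay above the level filter of 5.76. Of 7 markers of the fibroblast feeders on which the cells were first grown, 4 did, with Thy1 between 8.25 and 9.88 and the collagen genes at 6.88 or below. Thy1 was lower in the FLAG:MKRN1 input than in the FLAG:Ctrl input (a log2 difference of -0.99), and whether this bears on any value below was not tested. In bulk RNA, fewer cells of a type and less RNA per cell cannot be told apart.

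The annotated transcription starts of members on which the results turn are shown first, because the pyrimidine run at the start is what marks a TOP mRNA. Each line gives the 15 bases before and the 15 bases from the start (RefSeq, GRCm38.p6), 5′ to 3′ on the gene's strand, with the longest run of C and T in capitals.
Rpl7a, chr2:26910792-26910821, plus strand: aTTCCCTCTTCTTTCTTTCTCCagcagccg
Rpl14, chr9:120571502-120571531, plus strand: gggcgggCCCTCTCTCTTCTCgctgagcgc
Fau, chr19:6057932-6057961, plus strand: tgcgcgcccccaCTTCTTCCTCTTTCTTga
Rps10, chr17:27635230-27635259, minus strand: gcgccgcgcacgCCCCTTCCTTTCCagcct
Rplp2, chr7:141447636-141447665, plus strand: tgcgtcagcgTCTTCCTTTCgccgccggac
Rpl10, chrX:74270801-74270830, plus strand: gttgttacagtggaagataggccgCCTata
Rpl9, chr5:65391417-65391446, minus strand: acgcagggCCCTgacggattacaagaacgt
Rps28, chr17:33824548-33824577, minus strand: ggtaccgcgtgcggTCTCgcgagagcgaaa
Rpl24, chr16:55966260-55966289, plus strand: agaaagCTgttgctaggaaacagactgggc
Rps7, chr12:28635939-28635968, minus strand: gCTTCCggtttccacccacctacttccgct
Rplp0, chr5:115559452-115559481, plus strand: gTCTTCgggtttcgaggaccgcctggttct
The run spans 21 bases in Rpl7a, 16 in Fau, 14 in Rpl14, 13 in Rps10 and 10 in Rplp2, and 5 or fewer in Rpl10, Rpl9, Rps28, Rpl24, Rps7 and Rplp0. An annotated start can lie some bases away from the start that cells use, so a short run here says only that these letters are not in this window.

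The promoter table held 68 starts of 58 standard ribosomal protein genes. In 27 of these starts (39.7%) the 30-base window held a run of 8 or more pyrimidines, against 12% of the 32851 starts of all genes. In the 300-base windows reaching from 250 bases before to 50 after the start, CCGGAAG, the core bound by ETS-family factors, was found on either strand at 25 of the 68 starts (36.8%), against 8.86% of all starts. AAGATGGC, a core of the YY1 motif, was found at 8 of them (11.8%), against 2.75% of all starts. A match to one of these 2 motifs can overlap a match to the other. These are matches of letters and not binding sites.

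The first question was whether ribosomal protein mRNAs were recovered with FLAG:MKRN1 above both controls. The arrays cannot give the amount recovered, because there are no replicates and the normalization is not stated. In the values as deposited, the differences of these genes lay on both sides of 0, close to the median of all genes kept. Over the 66 genes the median log2 difference of the MKRN1-labelled RIP was -0.02 from the Ctrl RIP and -0.02 from the IgG RIP, against -0.03 and 0.00 over all 11502 genes kept. These comparisons share the MKRN1-labelled array. Relative to both control RIPs, 26 of the 66 genes were higher and 30 lower by any amount, against 34.6% and 44.4% of all genes. The remaining genes had no common direction. Centring the arrays moves the median of all genes from the Ctrl RIP to -0.23 or 0.14, depending on which probe sets are used, and the members move with it, so only their place relative to all genes is described.

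At 2-fold, 1 of the 66 genes was higher in the MKRN1-labelled RIP than in the Ctrl RIP, where 1.62% of all genes were, and none was lower, where 7.11% were. Against the IgG RIP none was 2-fold apart, where 1.53% of all genes were higher and 6.94% lower. None was 2-fold apart from both control RIPs in the same direction, where 1.1% of all genes were higher and 5.41% lower. Set against the input of its lysate, the MKRN1-labelled RIP was 2-fold higher for 1 member (2.47% of all genes) and lower for none (5.51%).

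**Figure D1:**
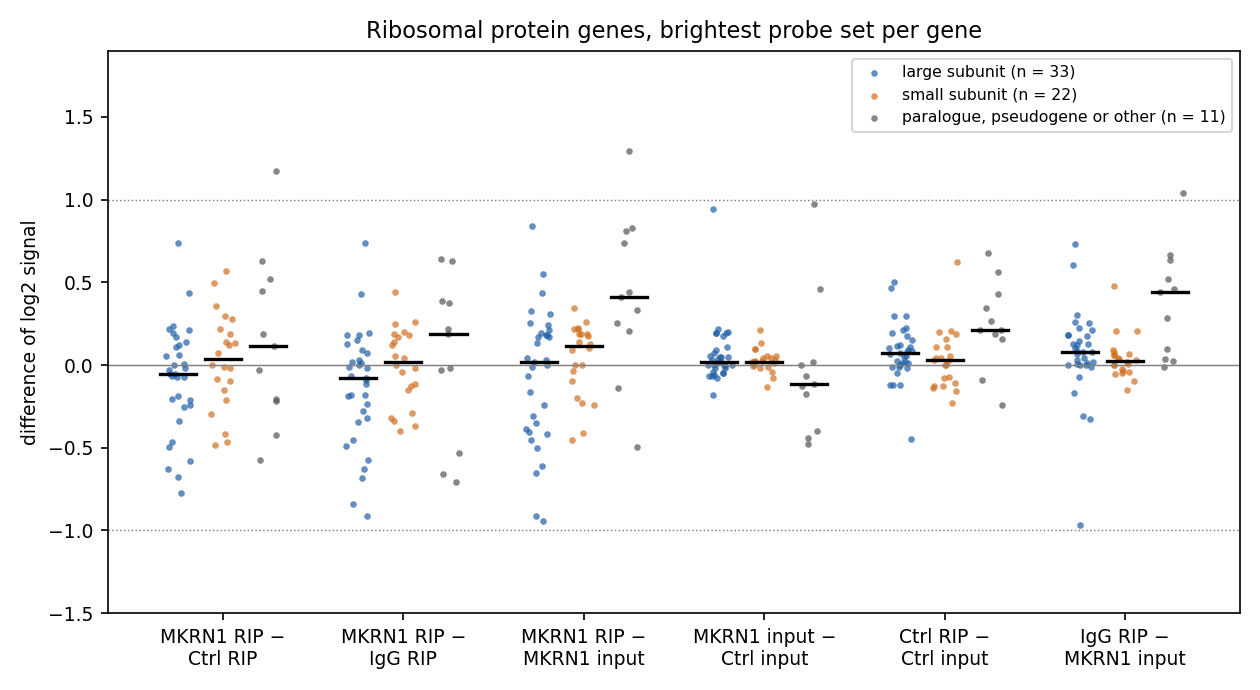
Difference of log2 signal (vertical axis) of each of the 66 genes in 6 comparisons, for 33 large subunit genes, 22 small subunit genes and 11 paralogues, pseudogenes or others; bars are medians, dotted lines mark 2-fold. The MKRN1-labelled RIP spreads the genes on both sides of 0, while most genes lie closer to 0 in the comparisons without it, and the points beyond 2-fold belong to the paralogue class.

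The spread of differences varied along the signal scale, so the ribosomal protein genes were set beside other genes of the same range. Among genes at a mean log2 signal of 12 or above, the 45 standard ribosomal protein genes had a median difference of -0.02 from the Ctrl RIP and -0.02 from the IgG RIP. The 218 other genes there had medians of -0.12 and -0.14. Below that level the gap varied. At 10 to 12, the 36 ribosomal probe sets had medians of 0.17 from the Ctrl RIP and 0.08 from the IgG RIP, against -0.29 and -0.29 over all 1513 probe sets with 1 symbol in that range. At 8 to 10, the 35 ribosomal probe sets had medians of 0.01 and -0.19, against -0.28 and -0.27 over all 3503. Of the 218 genes, 5 were at least 2-fold lower in the MKRN1-labelled RIP than in the Ctrl RIP and 6 than in the IgG RIP, and none of the 45 ribosomal protein genes was. The spread also narrowed towards the top of the scale: over all probe sets with 1 symbol, the SD of the difference from the Ctrl RIP across probe sets was 0.66 at levels of 8 to 10 and 0.30 at 13 or above, where 50 of the 81 probe sets were ribosomal. At 13 or above the SD over the ribosomal probe sets was 0.29. Whether the scale is compressed there was not tested.

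**Figure D2:**
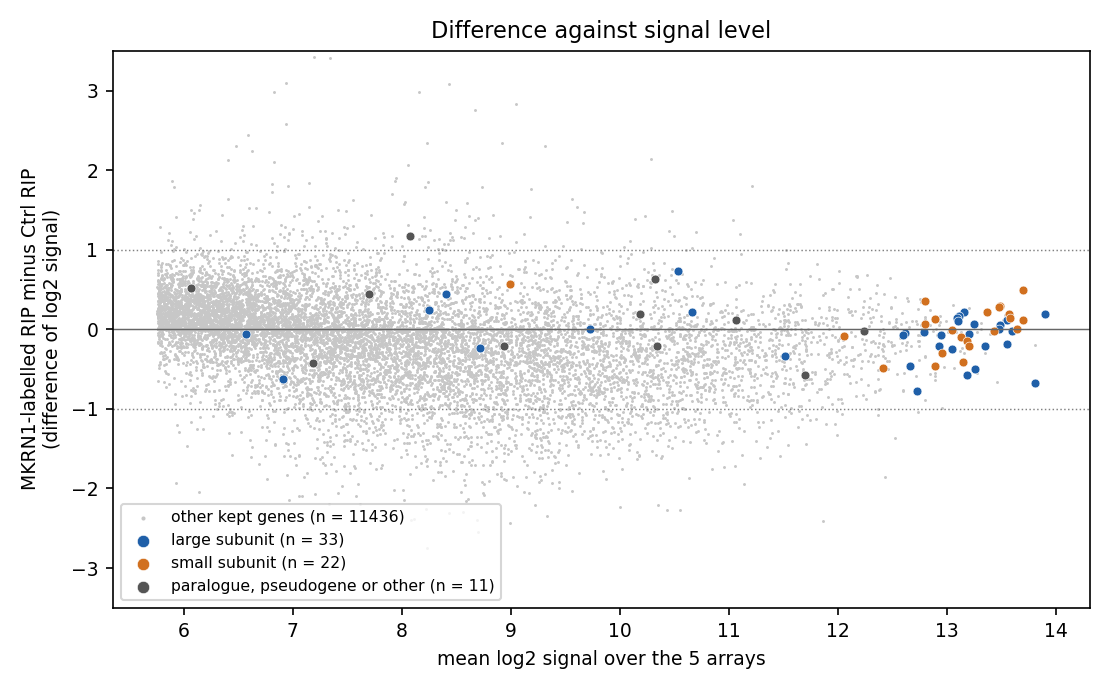
Difference of log2 signal between the MKRN1-labelled RIP and the Ctrl RIP (vertical axis) against the mean log2 signal over the 5 arrays (horizontal axis) for the 66 ribosomal protein genes and 11436 other kept genes; dotted lines mark 2-fold and 9 other genes lie beyond the axis at 3.5. Most ribosomal protein genes lie at 12 or above, and Rps23rg1 is the only one of them past a dotted line.

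Large and small subunit genes were then followed apart over the 5 arrays. Large subunit genes had a median log2 signal of 12.84 in the MKRN1-labelled RIP, 13.08 in the IgG RIP, 13.04 in the Ctrl RIP, with 13.02 in the FLAG:MKRN1 input against 12.98 in the FLAG:Ctrl input. Small subunit genes had medians of 13.06, 13.21, 13.22, 13.25 and 13.22 on the same arrays in that order. Across arrays, both classes had their lowest median in the MKRN1-labelled RIP. A median of levels is not the same measure as a median of differences taken gene by gene. By such differences, the 218 other genes at 12 or above had medians of -0.12 from the Ctrl RIP and -0.14 from the IgG RIP. Their median from the input of the same lysate was 0.002. Over all probe sets, the SD of signal was 2.19 on the MKRN1-labelled array, against 2.28 to 2.35 on the others.

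Gene by gene, the median difference of large subunit genes from the Ctrl RIP was -0.05, and that of small subunit genes was 0.04. From the IgG RIP these medians were -0.08 and 0.02, and from the input of the same lysate 0.02 and 0.12. The large subunit median was thus 0.09 to 0.10 below the small subunit median in the 3 comparisons, which share the MKRN1-labelled array. Its size depended on the probe sets used: with shared probe sets included the gap was -0.03 from the Ctrl RIP and -0.04 from the IgG RIP. With each gene given on each array by the median signal of its probe sets, it was -0.20 to -0.23 over the 3 comparisons. In the control RIPs the order was turned: the large subunit median lay 0.04 above the small subunit median in the Ctrl RIP relative to its input and 0.05 above it in the IgG RIP. Between the inputs both medians were 0.02. These gaps are small beside the spread within each class, where differences from the Ctrl RIP ran from -0.78 to 0.74 for large subunit genes and from -0.48 to 0.57 for small subunit genes. Higher than both control RIPs were 11 of 33 large and 10 of 22 small subunit genes, and lower than both were 18 large and 8 small subunit genes. Over all genes 34.6% were higher than both and 44.4% lower, and no subunit difference is read from these counts.

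The genes at the upper end of both control comparisons included 3 standard genes. Rpl21, a large subunit protein, read 11.16 in the MKRN1-labelled RIP, 10.42 in the IgG RIP, 10.42 in the Ctrl RIP, with 10.32 in the FLAG:MKRN1 input against 10.34 in the FLAG:Ctrl input. Its MKRN1-labelled RIP was 0.74 above both control RIPs in the brightest probe set. By the median signal of its probe sets on each array it was 0.046 above them, and 0.029 with shared probe sets included. Taken singly, 3 of its 4 probe sets above the filter were higher than both control RIPs, and the median over the 4 was 0.74. Rps29, a small zinc-binding protein of the small subunit, read 14.01, 13.56, 13.51, 13.66 and 13.74 on the same arrays. It was 0.50 above the Ctrl RIP and 0.44 above the IgG RIP (0.29 above both by the median signal of its probe sets), and both control RIPs lay below their inputs. Rpl34, a large subunit protein, read 8.79, 8.36, 8.36, 8.36 and 8.18. It was 0.43 or more above each of the other 4 arrays. Among small subunit genes, Rps13 (0.26), Rps21 (0.25), Rps15 (0.20) and Rps20 (0.19) followed, where the value is the smaller of the differences from both control RIPs.

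At the lower end stood large subunit genes. Rpl10, whose product joins the subunit late in its assembly, read 12.05 in the MKRN1-labelled RIP, 12.89 in the IgG RIP, 12.82 in the Ctrl RIP, with 12.96 in the FLAG:MKRN1 input against 12.94 in the FLAG:Ctrl input. The other 4 arrays lay between 12.82 and 12.96 for this probe set, and the MKRN1-labelled RIP was 0.78 or more below all of them. Rpl9 read 13.37, 14.00, 14.05, 13.78 and 13.84. Rpl24 read 12.75, 13.43, 13.33, 13.25 and 13.18. Both were lowest in the MKRN1-labelled RIP, by at least 0.63 (Rpl9) and 0.58 (Rpl24) against the control RIPs. By the median signal of a gene's probe sets the value of Rpl24 was -0.50, while those of Rpl10 and Rpl9 shrank to -0.28 and -0.18. The medians of the probe sets' own values were -0.58, -0.37 and -0.37 in that order. Rpl29 (-0.63) and Rpl23a (-0.49) were also among the lowest 6, as was Rps4l (-0.53), which RefSeq lists as a transcribed pseudogene. By the median signal of probe sets Rpl23a stood at 0.43 and Rps4l at -0.10. The median of the probe sets' own values was 0.14 for Rpl23a and -0.10 for Rps4l. In the small subunit the lowest values were those of Rps14 (-0.40), Rps3 (-0.34) and Fau (-0.32), the last encoding a fusion of a ubiquitin-like protein with RPS30.

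Several members also have known roles outside the ribosome. Rpl5, whose product binds MDM2 and thereby stabilises p53, differed by -0.03 from the Ctrl RIP and -0.11 from the IgG RIP. Rps6, the classic phosphorylation target of S6 kinase, was 0.12 and 0.14 higher. Rpsa, also known as the laminin receptor, was 0.07 and 0.05 higher, while Rplp0, the base of the stalk, stood lower, at -0.34 and -0.35. Rpl11, the partner of Rpl5 at MDM2, was read only by 6 probe sets shared with Brf2, whose values against both control RIPs ran from -2.50 to 1.15, so no value can be given for it.

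Single probe sets of the same gene often disagreed, which bounds what any single gene value shows. Of the 199 probe sets with 1 symbol, 187 lay above the level filter, and 39 genes had several of them. In 4 of these genes all probe sets were higher in the MKRN1-labelled RIP than in both control RIPs, in 9 all were lower, and in 26 they were mixed. The shares of such genes among all genes with several probe sets were not counted, so no trait of the members or of a subunit is read from these counts. The 4 were Rps28, Rps29, Rps13 and Rps21, all of the small subunit. The 9 were Rpl24, Rpl28, Rpl6, Rplp0, Rps7, Rps9, Rps10, Rps14 and Fau. Among them, Rps10 encodes a protein that is ubiquitinated when ribosomes stall, and its 2 probe sets stood at -0.30 and -0.16. Many ribosomal protein genes have near-identical processed pseudogenes, and which locus a probe set reads is not known here.

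**Figure D3:**
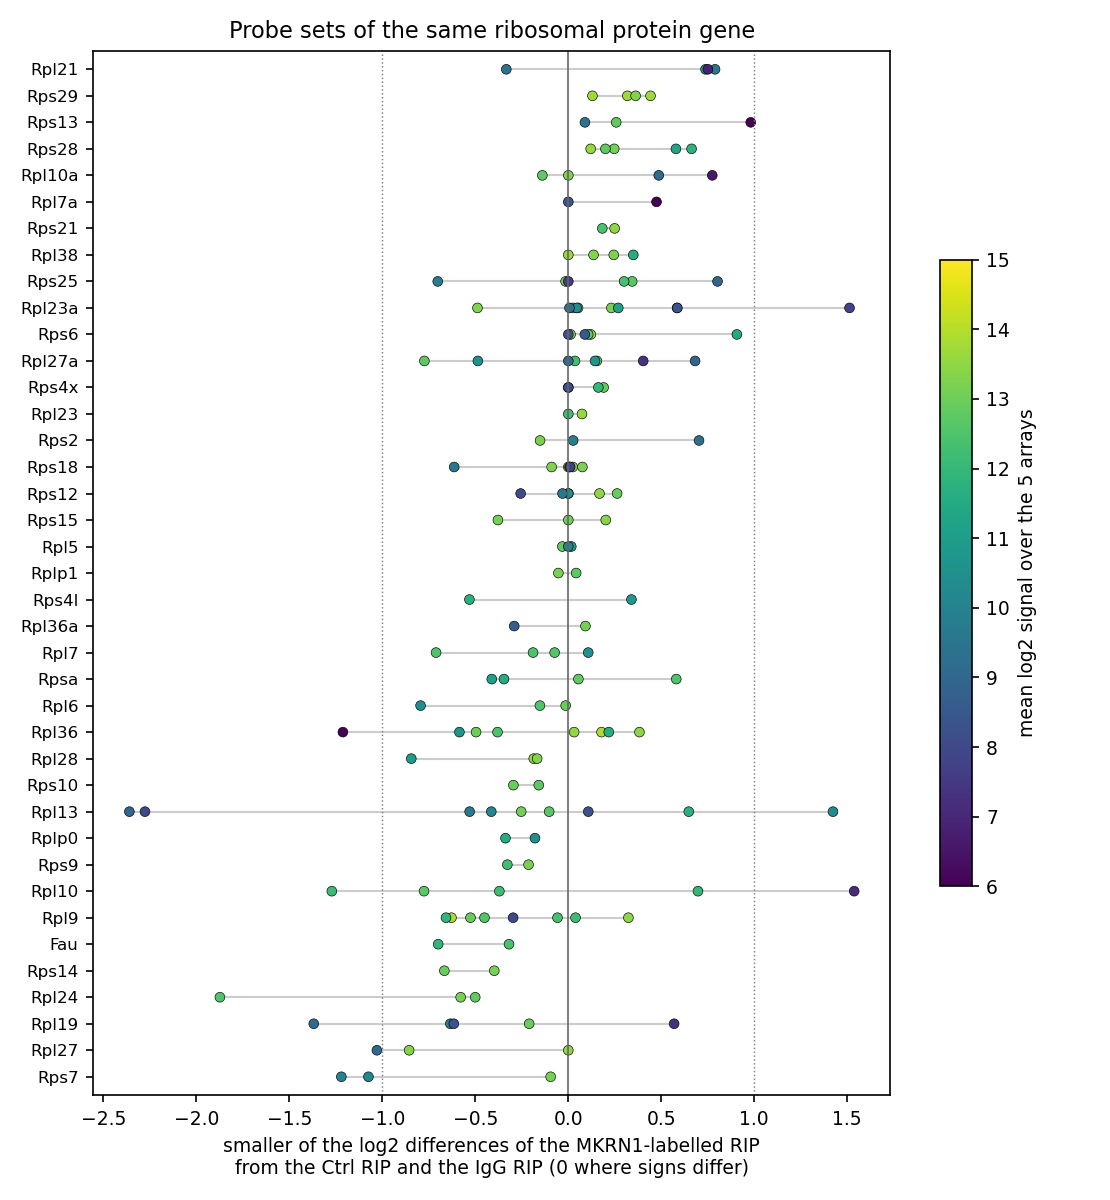
Every probe set above the level filter of the 39 ribosomal protein genes with several of them, ordered by the median of the values drawn for each gene. The horizontal axis is the smaller of the log2 differences of the MKRN1-labelled RIP from both control RIPs (0 where they differ in sign). The colour is the mean log2 signal, and dotted lines mark 2-fold. Rps29, Rps28, Rps13 and Rps21 lie wholly above 0, and probe sets of Rpl13 and Rpl10 lie beyond 2-fold on both sides.

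Of these 4 genes, Rps28, a small subunit protein near the mRNA exit, had the most probe sets. Its 5 probe sets read 13.70, 13.39, 13.02, 12.53 and 11.97 in the MKRN1-labelled RIP. They read 13.58, 13.15, 12.82, 11.87 and 11.40 in the IgG RIP and 13.56, 13.08, 12.82, 11.84 and 11.31 in the Ctrl RIP. The MKRN1-labelled value was the highest of the RIPs in each, by 0.12 to 0.66, and the 2 dimmest probe sets showed the wider gaps. The 4 probe sets of Rps29 were 0.13 to 0.44 above both control RIPs. Neither gene reached 2-fold in any probe set. Rps13 was 0.09 to 0.98 above both in its 3 probe sets and Rps21 0.18 to 0.25 in its 2.

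Rps7 and Rpl24 were lower in every probe set, by unlike amounts. The brightest Rps7 probe set read 13.09 in the MKRN1-labelled RIP against 13.21 in the IgG RIP and 13.19 in the Ctrl RIP. The other 2, near a level of 10, read 9.33 and 9.0 in the MKRN1-labelled RIP, against 10.57 and 10.22 in the IgG RIP and 10.41 and 10.24 in the Ctrl RIP. Those 2 were more than 2-fold lower while the brightest was nearly level. For Rpl24, the third probe set differed by -2.0 from the IgG RIP and by -1.87 from the Ctrl RIP, where it read 12.88. The other 2 differed from the Ctrl RIP by -0.58 and -0.50.

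Of the 187 probe sets, 9 were 2-fold higher and 9 lower than the Ctrl RIP, where 1.84% and 7.72% of all probe sets with 1 symbol were. Against the IgG RIP 4 were higher and 14 lower (1.75% and 7.62% of all), and against the FLAG:MKRN1 input 9 were higher and 9 lower (2.72% and 6.11%). Between the inputs 1 probe set, of Rpl19, was 2-fold higher and none lower (0.946% and 0.954%). In the Ctrl RIP against its input 3 were higher, of Rpl19, Rpl36a and Rps25, and none lower (1.1% and 0.417%). In the IgG RIP against its input 3 were higher, of Rpl10l, Rpl19 and Rps25, and none lower (1.48% and 0.489%). The shares of the ribosomal probe sets in the comparisons with the MKRN1-labelled RIP were thus near or above the background on the higher side and near or below it on the lower side.

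Probe sets past 2-fold against both control RIPs numbered 3 higher and 9 lower (1.26% and 5.99% of all). The 3 higher ones belonged to Rpl13, Rpl10 and Rpl23a, and the 9 lower ones to 7 genes (Rpl13 and Rps7 with 2 each, Rpl10, Rpl19, Rpl24, Rpl27 and Rpl36). Rpl13 spanned the widest range: of 9 probe sets, one read 11.90 in the MKRN1-labelled RIP against 10.48 in the IgG RIP and 10.00 in the Ctrl RIP, and another read 6.39 against 10.47 and 8.75. Rpl10 ran from -1.27 to 1.54 over 5 probe sets. Rpl23a was lower in its brightest probe set only and higher in the other 9. Ranges of 1 or more on the log2 scale were also seen for Rpl19, Rpl36, Rps25, Rpl27a, Rpl24, Rps7, Rpl21 and Rpl27. Apart from Rpl24 and Rps7, whose probe sets were all lower, and Rpl27, with none higher, these genes had probe sets on both sides of 0.

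Disagreement was widest at low signal. Among the 18 ribosomal probe sets at levels under 8, the SD of the difference from the Ctrl RIP was 1.09, against 0.54 over all 7118 probe sets at those levels. At 12 to 13 these SDs were 0.47 and 0.43. Of the 192 shared probe sets above the filter, 7 were 2-fold higher and 14 lower than both control RIPs, where 4.82% and 6.67% of all 705 shared probe sets were, so these counts lay near the background. Their median from the Ctrl RIP was 0.01, against 0.05 over all shared probe sets. Of those 14, 8 were named for Rpl29 together with other loci, at -2.43 to -1.02. Probe sets shared between Rpl11 and Brf2 gave 2 of the 14 and 1 of the 7.

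Paralogues and pseudogenes gave the only 2-fold differences among the 66 gene values. Rps23rg1, a mouse retrogene of Rps23, read 8.74 in the MKRN1-labelled RIP, 8.36 in the IgG RIP, 7.57 in the Ctrl RIP, with 8.33 in the FLAG:MKRN1 input against 7.36 in the FLAG:Ctrl input. Its difference of 1.17 from the Ctrl RIP stood beside a difference of 0.97 between the inputs, and the difference from the IgG RIP was 0.39. Rpl39l, the paralogue of Rpl39 best known from male germ cells, read 11.02, 10.39, 10.39, 9.72 and 10.12. The MKRN1-labelled RIP stood 0.63 above the control RIPs and 1.30 above its input, and the IgG RIP stood 0.67 above the same input. Rpl3l, the striated muscle paralogue of Rpl3, was dim (6.69, 6.05, 6.17, 5.95 and 5.49) and 0.52 or more above the control RIPs. Rpl10l, the testis paralogue of Rpl10, read 8.87 in the MKRN1-labelled RIP, 9.58 in the IgG RIP, its highest value, and 9.08 in the Ctrl RIP. Rpl7l1, Rpl32l, Rpl14-ps1, Rps27l and Rps19-ps3 differed from the control RIPs by at most 0.66 in size, and Rps19bp1 by -0.22 and 0.19.

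The next question was what the control RIPs recovered, since it sets the background of each member. Relative to its own input, 43 of the 66 genes were above it in both control RIPs and 14 below it in both, against 36.8% and 18.7% of all genes. The medians were 0.07 in the Ctrl RIP and 0.06 in the IgG RIP, against 0.01 and 0.00 over all genes. Bright genes in general stood above their inputs: at a level of 12 or above, the standard ribosomal protein genes had medians of 0.05 in the Ctrl RIP and 0.04 in the IgG RIP, against 0.09 and 0.12 over the 218 other genes. At that level 62.2% of the standard genes were above the input in both control RIPs and 24.4% below it, against 68.3% and 16.5% of the other genes. With the level filter at the 75th percentile, 62 of the 66 genes were left and lay -0.03 from the median of all genes in both comparisons. After quantile normalization the 66 genes lay -0.02 from it in the IgG RIP. Their place above all genes thus depends on which genes they are set against and on the scaling. None of the 66 was 2-fold apart in the Ctrl RIP (0.948% of all genes higher, 0.374% lower), and Rpl10l alone was 2-fold higher in the IgG RIP (1.32% of all genes higher, 0.461% lower).

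Rps3, a small subunit protein at the mRNA entry channel, stood highest among standard genes in the Ctrl RIP: the IgG RIP read 13.13 against 12.65 in the FLAG:MKRN1 input, while the Ctrl RIP read 13.26 against 12.63 in the FLAG:Ctrl input. These are differences of 0.48 and 0.62. In the MKRN1-labelled RIP it read 12.79, a difference of 0.14 from its input. Rpl14 gave 0.61 in the IgG RIP and 0.47 in the Ctrl RIP, and Rpl7a 0.73 and 0.50. In all 3 genes both control RIPs lay above both inputs. Other members, such as Rpl7 and Rpl19, had this order too, and its share over all genes was not counted.

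At the other end were the stalk genes, whose products form the acidic stalk that binds translation factors. Rplp1 read 12.99 in the MKRN1-labelled RIP, 13.08 in the IgG RIP, 13.04 in the Ctrl RIP, with 13.41 in the FLAG:MKRN1 input against 13.49 in the FLAG:Ctrl input. Its second probe set read 12.57, 12.53, 12.48, 12.94 and 12.93, so in both probe sets the 3 RIPs lay below the 2 inputs without overlap. Rplp0 behaved alike (11.16, 11.51, 11.50, 11.81 and 11.62), and Rpsa likewise in its brightest probe set (12.79, 12.73, 12.72, 12.88 and 12.87). The same order was seen in the brightest probe sets of other members, among them Rpl28, Rpl10, Rps10, Rps14 and Rps2. It is thus not particular to the stalk genes, and its share over all genes was not counted. Rplp2 read 10.49 in the FLAG:MKRN1 input and between 9.52 and 9.54 on the other 4 arrays. Its differences of -0.95 (MKRN1-labelled RIP) and -0.97 (IgG RIP) from that input therefore rest on 1 array, since the Ctrl RIP stood only -0.01 from the FLAG:Ctrl input.

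**Figure D4:**
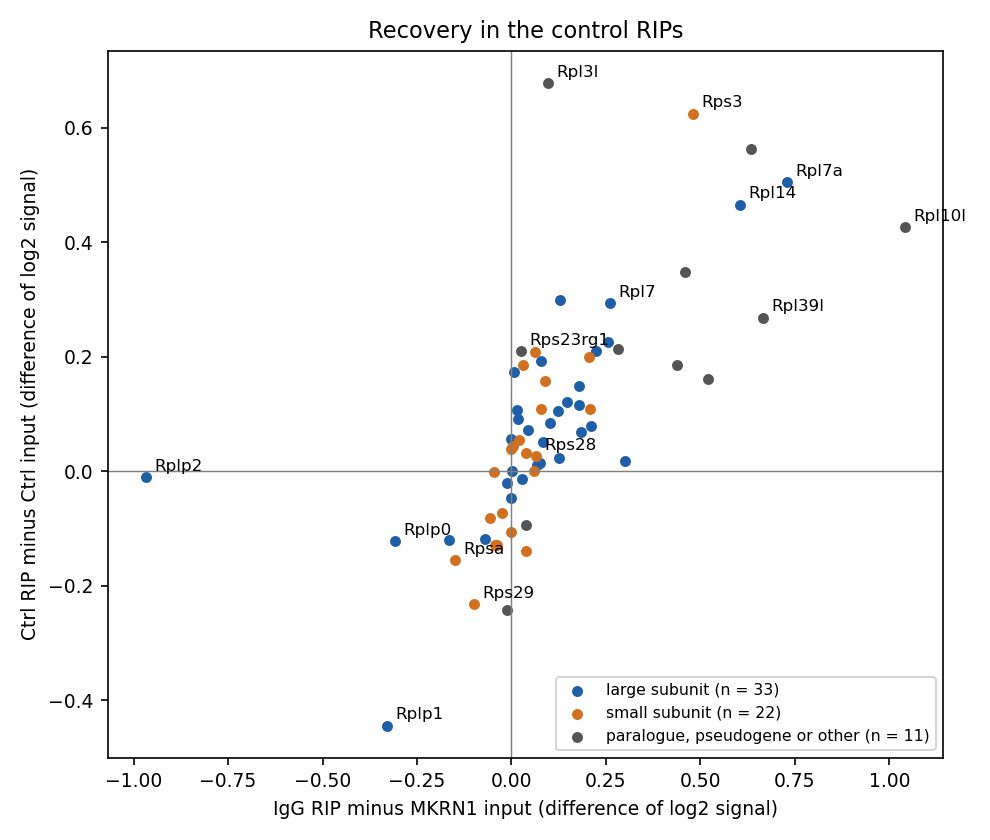
Ctrl RIP minus FLAG:Ctrl input (vertical axis) against IgG RIP minus FLAG:MKRN1 input (horizontal axis) for the 66 ribosomal protein genes, both as differences of log2 signal. Rps3, Rpl7a and Rpl14 lie above 0 on both axes, Rplp0 and Rplp1 lie below 0 on both, and Rplp2 lies at -0.97 on the horizontal axis only.

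The control RIPs were close to each other for these genes. The SD across the 66 genes of the difference between the IgG RIP and the Ctrl RIP was 0.16, against 0.24 over all kept genes. For the difference of the MKRN1-labelled RIP from the Ctrl RIP these SDs were 0.36 and 0.57. Between the inputs, the median over the 66 genes was 0.02 against 0.00 over all genes, and none was 2-fold apart (0.878% of all genes higher, 0.791% lower). The widest input differences were those of Rps23rg1 (0.97), Rplp2 (0.94) and Rpl3l (0.46) on the higher side and Rps19bp1 (-0.48), Rpl7l1 (-0.44) and Rpl39l (-0.40) on the lower side. Among standard genes other than Rplp2, input differences lay between -0.18 and 0.22.

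Genes with long and short pyrimidine runs in the window around the annotated start overlapped in their differences. The longest run was taken from anywhere in this window, so it could end before the start. It did so in Rpl4, Rpl13 and Rps15a, with runs of 11, 9 and 10 bases from position -15. The groups below are thus not genes with and without a TOP run, and that comparison was not made. Of 44 standard genes with both a start in the table and a probe set of their own, 16 had a run of 8 or more, with medians of -0.04 from the Ctrl RIP and -0.18 from the IgG RIP. The other 28 had a shorter run, with medians of 0.03 and 0.00. Of the 16, 5 were higher and 8 lower than both control RIPs, and of the 28, 12 were higher and 11 lower. Over all genes these shares were 34.6% and 44.4%. Fau and Rps10, whose starts above hold runs of 16 and 13 bases, were lower in all their probe sets, and so were Rpl24 and Rps7 with runs of 5 bases or fewer.

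Lists of other genes of the translation machinery had lower medians in the MKRN1-labelled RIP than the ribosomal protein genes. Of 21 listed TOP mRNAs that encode other proteins, 16 were kept, with medians of -0.18 from the Ctrl RIP and -0.21 from the IgG RIP, and none was 2-fold lower than both. The lowest were the initiation factors Eif3h (-0.76) and Eif4b (-0.72), and Naca, of the nascent polypeptide-associated complex, was highest (0.06). The 23 ribosome assembly genes had medians of -0.47 and -0.33 (-0.19 and -0.068 after quantile normalization), and 4 were 2-fold lower than both control RIPs, where 5.41% of all genes were: the small subunit maturation kinase Riok2 (-1.54), the processome proteins Utp20 (-1.53) and Heatr1 (-1.17), and Mdn1 (-1.30), an ATPase of large subunit assembly. The 11 genes of ribosome-associated quality control had medians of -0.22 and -0.30 (-0.054 and -0.082 after quantile normalization), and 1 was 2-fold lower than both. Ltn1, the ligase that marks stalled nascent chains, was lowest: it read 7.95 in the MKRN1-labelled RIP, against 9.78 in the IgG RIP and 9.86 in the Ctrl RIP. Zfp598, the ligase that senses collided ribosomes, was 0.39 higher than both. At levels of 8 to 12, the medians over all probe sets with 1 symbol were themselves -0.27 to -0.29. Of these probe sets, 389 of 3503 at 8 to 10 and 148 of 1513 at 10 to 12 were 2-fold lower than both control RIPs. These shares are larger than the 5.41% over all genes. The difference between these lists and the ribosomal protein genes was not tested.

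Many ribosomal protein genes carry small nucleolar RNAs (snoRNAs), guides of ribosomal RNA modification, in their introns, and the arrays read some of these guests apart from the host mRNA. RefSeq places 35 snoRNAs inside 24 ribosomal protein genes, of which 15 had a probe set of their own above the filter. Of these, 8 were 2-fold higher in the MKRN1-labelled RIP than in both control RIPs and 3 were 2-fold lower, where 1.1% and 5.41% of all genes were. Their median was 1.20 from the Ctrl RIP, 1.10 from the IgG RIP and 0.71 from the input of the same lysate. They also differed without that RIP, with a median of 0.77 between the inputs and -0.54 in the IgG RIP relative to its input, and the part of these in the differences was not tested. The level filter took the mean over all arrays, so a high value in the MKRN1-labelled RIP helped a snoRNA to pass. Snord15b, among the 8, read 6.84 in that RIP and between 5.57 and 5.64 on the other arrays, below the filter. Counts with a filter that leaves out that RIP were not made. Snora21 read 11.09 in the MKRN1-labelled RIP, 6.52 in the IgG RIP and 6.19 in the Ctrl RIP, while its host Rpl23 read 13.68, 13.60 and 13.55. Snora62 read 9.71, 8.04 and 8.11 on these RIPs, and its host Rpsa 12.79, 12.73 and 12.72. Within Rpl13a, Snord35a was higher (2.98) and Snord33 lower (-1.64) than both control RIPs, so guests of the same host went opposite ways. The 25 other snoRNAs kept had medians of 1.11 from the Ctrl RIP and 0.53 from the IgG RIP, and 9 were 2-fold higher and none lower. Their median from the input of the same lysate was -0.003, that between the inputs 0.56, and that of the IgG RIP from its input -0.60. Rpl12 was also read by a probe set shared with Snora65, at 10.02 in the MKRN1-labelled RIP against 7.59 in the IgG RIP and 8.16 in the Ctrl RIP, while its own probe set differed by -0.06 from both.

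**Figure D5:**
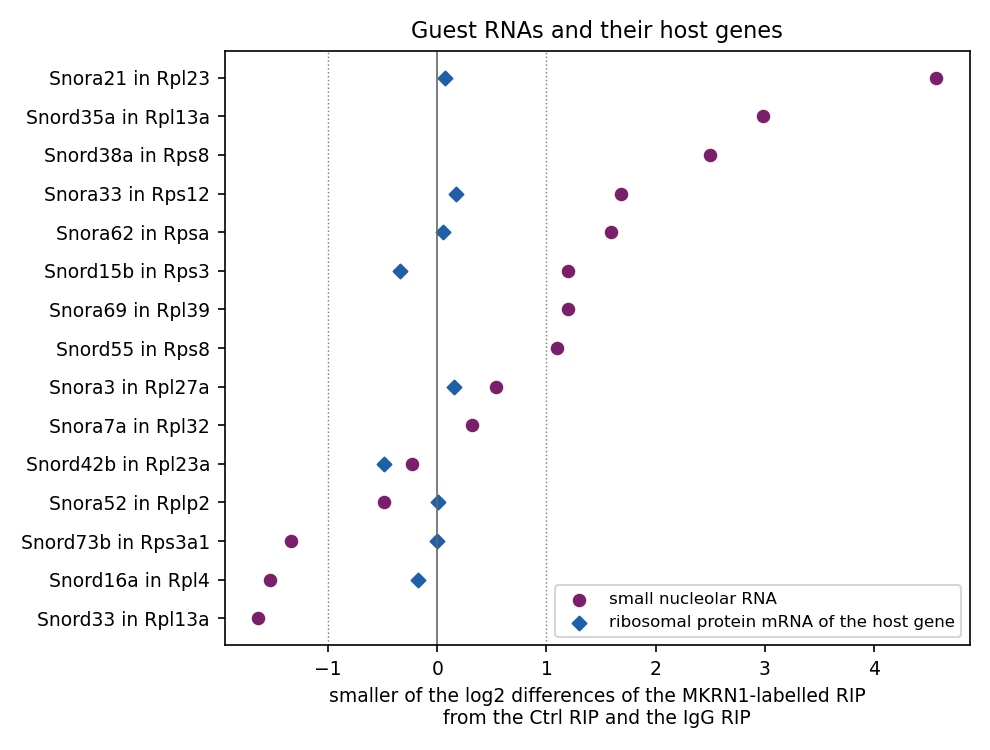
Smaller of the log2 differences of the MKRN1-labelled RIP from both control RIPs (horizontal axis) for 15 snoRNAs inside ribosomal protein genes (circles) and for the mRNA of the host gene (diamonds; none where the host has no probe set of its own); dotted lines mark 2-fold. Guests run from -1.64 to 4.57, while each host drawn lies between -0.49 and 0.17.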

How the data were processed

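Values were used as the authors deposited them: log2 signal of single arrays, 1 number for each probe set. The labels mention biotin labelling after standard Affymetrix protocols. That the scale is log2 follows from the range of values (2.56 to 14.4). How background was corrected and arrays were normalized is not stated in the sources used; array medians lay between 5.68 and 5.88, and no scaling was added. Symbols come from the platform annotation, and all 66 genes matched RefSeq (GRCm38.p6) by identifier. For each gene the brightest probe set over the 5 arrays was used, and the 11502 genes at or above the median probe-set mean (5.76) were kept. Differences of log2 values were counted at 2-fold; no test is possible with 1 array per group. A single value given against both control RIPs is the difference nearer to 0, and 0 where the signs are opposite.

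The text names the 6 genes at either end of that value, the 3 at either end of other comparisons, probe sets past 2-fold, genes whose probe sets spread by 1 or more, paralogues, 5 genes with roles outside the ribosome, and up to 4 per other list. Members, lists and rules were chosen with earlier results of these data known. The calculation was tested on simulated data. Python 3.11.15, pandas 2.3.3 and numpy 2.4.6 were used.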

Additional observations from a re-analysis of the deposited data

How the results depend on the processing

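No result below has a replicate check, and ribosomal protein probe sets lie near the top of the signal scale. No paired analysis was possible because each group holds 1 array, and for the same reason no array was left out in turn. The comparisons named here are those of the report.

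Centring each array on its median over all probe sets moved the members' medians to -0.22 (MKRN1-labelled RIP minus Ctrl RIP), -0.19 (minus IgG RIP) and 0.025 (minus input). The counts of members past 2-fold moved to 0, 2 and 3, against 1, 0 and 1 as reported. The shares of all genes past 2-fold after centring were not counted. Centring on the kept genes, chosen after the data were seen, moved the first 2 medians to 0.15 and 0.13. Under both centrings the members' place relative to all genes was unchanged by construction. With the filter at the 75th percentile of probe-set means, the 62 members left lay 0.25 and 0.23 above the median of all genes in the same comparisons. As reported, these values were 0.01 and -0.01. All genes left had lower medians, and the members' own medians were -0.007 and -0.015.

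When each gene was given on each array by the median signal of its probe sets, the large subunit median lay at -0.20, -0.21 and -0.23 from the small subunit median. These are the comparisons with the Ctrl RIP, the IgG RIP and the input. In them 3, 3 and 3 members were past 2-fold, with 2 against both control RIPs, and the shares of all genes were not counted. With only standard genes, the counts were 0 from the Ctrl RIP, 0 from the input and 0 for the IgG RIP against its input. At 1.5-fold, 6, 9, 9, 2, 2 and 6 members were past the threshold. The order is MKRN1-labelled RIP minus Ctrl RIP, IgG RIP and input, input minus input, Ctrl RIP minus input and IgG RIP minus input. Of all 11502 genes, 778, 735, 1068, 404, 693 and 824 were higher in that order, and 2142, 2062, 1640, 455, 195 and 196 lower. Against both control RIPs, 5 members were past 1.5-fold, where 550 of all 11502 genes were higher and 1705 lower.

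Medians of the other lists, from the Ctrl RIP and then the IgG RIP, moved as follows. Centred over all probe sets they were -0.38 and -0.38 for other TOP mRNAs, -0.67 and -0.51 for assembly genes, and -0.43 and -0.48 for quality control genes, of which 2 were then past 2-fold against both control RIPs. Centred over kept genes they were -0.013 and -0.062, -0.30 and -0.19, and -0.059 and -0.16. Quantile normalization gave -0.10 for other TOP mRNAs from the IgG RIP, -0.19 and -0.068 for assembly genes, and -0.054 and -0.082 for quality control genes. At 1.5-fold, 2, 7 and 3 genes of these lists were past the threshold against both control RIPs, against 0, 4 and 1 at 2-fold. Of all 11502 genes kept, 550 were higher and 1705 lower than both at 1.5-fold, and 127 and 622 at 2-fold.

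In all, 177 of 204 medians moved by less than 0.1 and 73 of 94 counts stayed within 1.5 times. These totals include outcomes that could not move. Centring leaves the subunit gaps and the members' place relative to all genes as they were. Leaving out the filter cannot change the members' own medians, and keeping only standard genes cannot change the subunit gaps. The totals are therefore not a measure of how robust the results are. Among the 12 genes at the ends of the group, the sign changed for Rpl23a alone, to 0.43 by the median signal of its probe sets on each array. The same setting moved Rpl21 to 0.046, Rpl10 to -0.28, Rpl9 to -0.18, Rps4l to -0.10 and Rps29 to 0.29, and Rpl21 came to 0.029 when shared probe sets were added.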
